A study of Arabidopsis thaliana with 6 samples.

Results

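Transcripts of wild type Arabidopsis thaliana seedlings were compared 24 hours after gamma irradiation with those of mock-treated seedlings. Both groups were Columbia-0 plants (WT), grown on agar with sucrose in long days and 14 days old at treatment. The irradiated seedlings had received 200 Gy from a cobalt source at 50 Gy per hour, and the mock seedlings none. For each group RNA was taken from at least 10 whole seedlings, 3 independent batches were pooled, and the pool was hybridised to 1 single-colour array. The pair of arrays, WT irradiated and WT mock, was chosen by its labels and made up 2 of the 6 arrays of the study. The other 4 arrays held ago2a and ago2c, mutant lines of the small RNA binding protein ARGONAUTE2, irradiated and mock-treated in the same way. With 1 array per condition there was no replicate of any WT group, so no difference below carries a test and all are descriptions of these 2 pools.

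Gamma rays break DNA. In plants the break is sensed by the kinases ATM and ATR, which activate SOG1, a transcription factor of the NAC family that takes the role p53 has in animals. SOG1 switches on genes of recombination repair and genes that halt the cell cycle, among them inhibitors of cyclin-dependent kinases, while MYB3R repressors shut off genes needed for mitosis. Dividing cells make up a small part of a whole seedling of this age, and a lower signal from fewer cells of a type cannot be told apart here from less RNA per cell.

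The processed signal, the spot brightness after the scanner software's background correction, was used on a log2 scale relative to the 75th percentile of each array, which was 2159 in irradiated and 2167 in mock seedlings. Of all probes, 73.4% were well above background in irradiated and 72.7% in mock seedlings, and no probe was saturated. The lowest signal counted as well above background was 26.2 in irradiated and 29.8 in mock seedlings. Seedling tissue was checked with marker genes. All 28 photosynthesis genes and 26 of 27 root markers were measured, whereas 0 of 6 seed storage genes and 1 of 6 anther and pollen genes were. The measures of error at hand do not cover the spread between seedling batches. The error that the scanner software states for each spot gave a median of 0.20 (log2) for the difference between the arrays, and 20 probes spotted 5 times each differed between spots with an SD of 0.13. Where a value below has an error, it is the scanner's error of the log2 difference.

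The 2 pools were alike for most genes. Among 20171 measured loci the median difference, irradiated minus mock, was -0.013 (log2), the lower and upper quartiles were -0.14 and 0.12, and 90.0% lay within 0.5 of 0. At least 2-fold higher signals in irradiated seedlings, with the irradiated array well above background, were found at 257 loci (1.27%), and at least 2-fold lower signals at 317 loci (1.57%). Among the 19694 loci well above background on both arrays the counts were 165 higher (0.838%) and 221 lower (1.12%). A mock signal that was not well above background stood behind 92 of the higher loci, and an irradiated signal of that kind behind 96 of the lower ones. At least 4-fold were 76 of the higher and 84 of the lower loci, of which 30 and 38 were well above background on both arrays. The shares higher and lower depended on the scaling. The 7 control spots named E1A that were well above background, which the array reserves for transcripts added to the RNA, lay between -0.32 and -0.21 (log2, irradiated minus mock), and whether their amounts were equal was not tested. Scaled to these spots, 492 loci were higher and 201 lower, which is 71.0% higher among the loci past 2-fold against 44.8% as reported, and the median of all loci became 0.26.

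**Figure D1:**
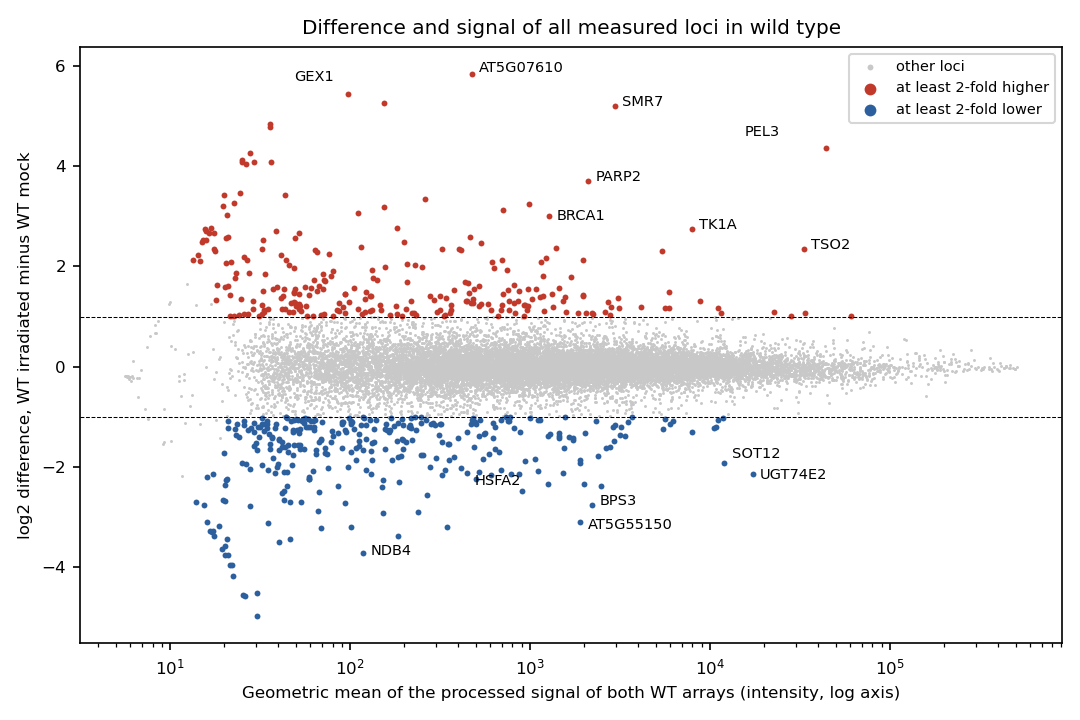
Log2 difference of each of 20171 loci (irradiated minus mock, vertical axis) against the geometric mean of the processed signal of both WT arrays (horizontal, log axis). Red points are the 257 loci at least 2-fold higher, blue points the 317 at least 2-fold lower, dashed lines mark 2-fold, and bright loci spread less than dim ones.

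Loci past 2-fold were mostly dim. In the lowest quartile of loci by mean signal 168 were higher and 236 lower, against 15 and 11 in the highest quartile. The median of the absolute difference was 0.23 (log2) in the lowest and 0.11 in the highest quartile. Loci with several probes gave a further check. Of 28 higher loci with other probes well above background on both arrays, the median of the other probes was positive at 27 and past 2-fold at 23, and of 26 lower loci it was negative at 23 and past 2-fold at 19.

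Damage response genes held the largest differences of any list examined. The gene lists were chosen with earlier results of these data known, so their counts and medians are descriptions only. Of 27 measured genes known to respond to DNA breaks, 19 were at least 2-fold higher in irradiated seedlings and 0 were lower, where 1.27% of all loci were higher. Their median difference was 1.69 (log2), and 26 of 27 were above 0. SMR5 and NAC044, also on this list, had no probe and were not analysed here.

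Of the regulators, NAC103, a NAC factor known as a target of SOG1, had a signal of 827 in irradiated and 82.4 in mock seedlings, 10.1-fold higher (log2 3.33 ± 0.24). NAC085, a NAC factor that slows the cell cycle after damage, had 97.2 in irradiated seedlings and was not well above background in mock seedlings, a difference of at least 3.28-fold (log2 0.85 with normexp correction). For such loci the bound sets the irradiated signal against the dimmest mock signal that counted as well above background, or against the locus's own if that was higher. SOG1 itself had 1428 in irradiated and 1622 in mock seedlings, a log2 difference of -0.18, which is under the scanner error.

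Genes that act at the break were the next group. BRCA1 (AT4G21070), which directs breaks to repair by recombination, had 3596 in irradiated and 450.2 in mock seedlings, 8.02-fold higher (3.00 ± 0.21). PARP2 (AT4G02390), a poly(ADP-ribose) polymerase that marks breaks, had 7549 in irradiated and 585 in mock seedlings, 12.9-fold higher (3.69 ± 0.20), and its relative PARP1 had 1842 in irradiated and 704 in mock seedlings (1.39). XRI1, named for its induction by X-rays, had 2085 in irradiated and 241 in mock seedlings, 8.70-fold higher. GMI1, named for gamma rays and mitomycin C, had 1138 in irradiated and 192 in mock seedlings, 5.96-fold higher. Each of these genes stood above mock by more than 5 times its scanner error. COM1, which trims broken ends, had 917 in irradiated and 185 in mock seedlings (2.32), and the checkpoint gene RAD17 had 3127 in irradiated and 913 in mock seedlings (1.78). SYN2, a cohesin subunit that holds sister chromatids together, differed by 1.69, RPA1E, a subunit of the protein that coats single-stranded DNA, by 1.66, and MND1, known from meiotic recombination, by 1.32. RAD54, a recombination motor protein, at 0.99, and RPA1C at 0.98 lay just inside the 2-fold line.

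GEX1 (AT5G55490), first described in gametes, had 642 in irradiated seedlings and was not well above background in mock seedlings, a difference of at least 21.6-fold. AGO2 (AT1G31280), the gene that the mutant lines affect, had 521 in irradiated and 250.1 in mock seedlings (1.07 ± 0.21, and 0.91 with normexp correction). The members nearest to 0 were XRCC2 at -0.08 and the photolyase gene UVR2 at 0.01. LIG4, the ligase of end joining, differed by 0.29, and BARD1, the partner of BRCA1, by 0.44 at signals of 42.8 in irradiated and 31.7 in mock seedlings.

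**Figure D2:**
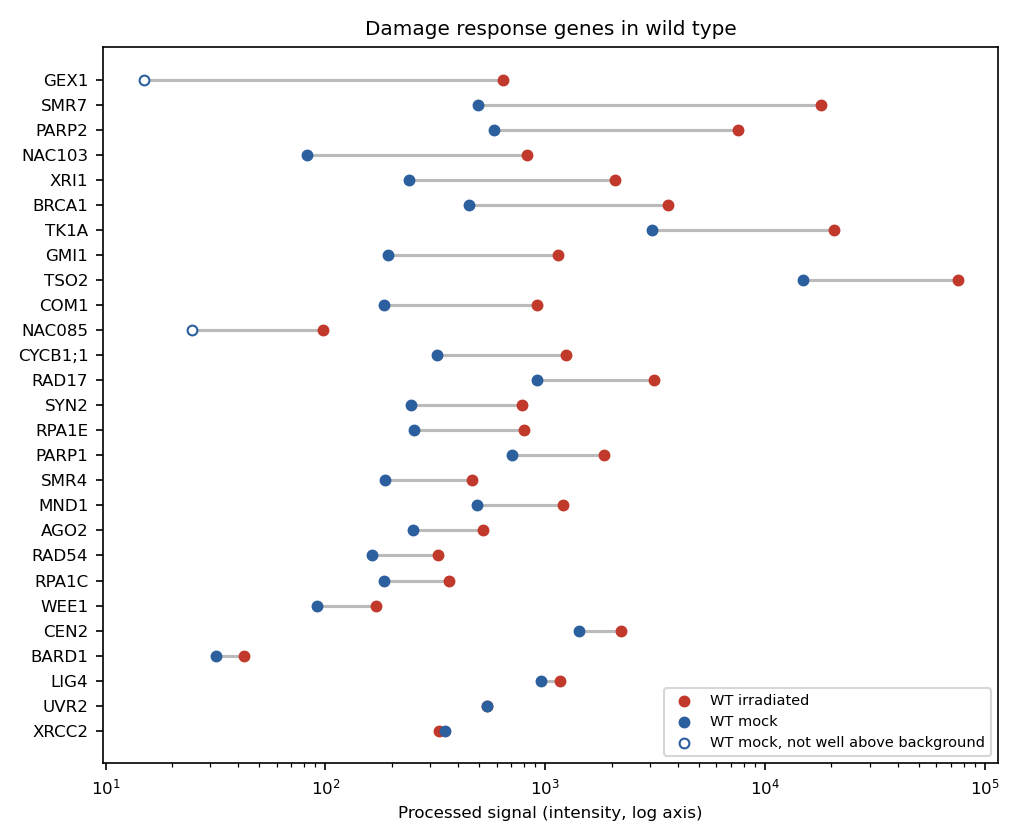
Processed signal (log axis) of the 27 measured damage response genes in WT irradiated (red) and WT mock (blue) seedlings, joined by a line and sorted by difference. Open circles are mock signals not well above background, and 19 genes lie at least 2-fold to the right of their mock signal.

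Repair genes outside that list were level between the pools. Of 27 measured genes of other repair steps, 0 were at least 2-fold higher or lower, their median difference was 0.04 (log2), and 26 of 27 lay within 0.5 of 0. The highest was POLH, a polymerase that copies past lesions, with 406 in irradiated and 329.7 in mock seedlings (0.30), and the lowest was MRE11, a nuclease of the break-sensing complex, with 256 in irradiated and 382 in mock seedlings (-0.57). Its partners RAD50 (-0.01) and NBS1 (-0.16) and the end-joining genes KU70 (0.02) and KU80 (0.08) differed by less than the scanner error. The sensor kinase gene ATR differed by 0.19.

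Cell cycle genes differed by the phase in which they act. Of 15 measured inhibitors of cyclin-dependent kinases, SMR7 and SMR4 were at least 2-fold higher and 0 were lower, where 1.27% of all loci were higher. SMR7 (AT3G27630), an inhibitor known as a direct SOG1 target, had 17907 in irradiated and 492 in mock seedlings, 36.6-fold higher (5.19 ± 0.20). SMR4 (AT5G02220) had 465 in irradiated and 187 in mock seedlings, a log2 difference of 1.32. Both genes are also on the damage response list and were counted there too. The other 13 inhibitors lay between -0.71 (KRP3) and 0.55 (KRP6), and SIM, the founding member of the SMR family, differed by 0.25.

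Genes of DNA replication were slightly higher as a group. Of 27 measured, 26 were above 0, with a median of 0.41 (log2). The 3 at least 2-fold higher, where 1.27% of all loci were higher, all make DNA precursors. TSO2 (AT3G27060), the small subunit of ribonucleotide reductase, had 75130 in irradiated and 14795 in mock seedlings (2.35 ± 0.20). TK1A (AT3G07800), a thymidine kinase, had 20525 in irradiated and 3068 in mock seedlings (2.75 ± 0.20, and 2.82 on its other probe), and RNR1 (AT2G21790), the large reductase subunit, had 8878 in irradiated and 3984 in mock seedlings (1.16). TSO2 and TK1A are also on the damage response list and were counted there too. The housekeeping reductase gene RNR2A, with 2651 in irradiated and 3078 in mock seedlings (-0.21), was the member below 0. The clamp gene PCNA1 differed by 0.71, and the helicase genes MCM2 to MCM7 by 0.18 to 0.59.

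Genes of G2 phase and mitosis lay on the other side. Of 30 measured, 26 were below 0, with a median of -0.45 (log2), and CYCB2;1 was at least 2-fold lower, where 1.57% of all loci were lower. CYCB2;1 (AT2G17620), a B-type cyclin, had 82.4 in irradiated and 184 in mock seedlings (-1.15 ± 0.24), but -0.77 with normexp correction. TPX2, a spindle assembly factor, had 488 in irradiated and 849 in mock seedlings (-0.79), and KNOLLE (KN), a syntaxin of the cell plate, had 3460 in irradiated and 5295 in mock seedlings (-0.61). The kinesin gene HIK (-0.58) and the spindle checkpoint gene BUBR1 (-0.61) were lower too, while the B-type kinase genes CDKB1;1 (0.14) and CDKB2;1 (-0.11) were level within the scanner error. CYCB1;1 (AT4G37490) lay on the other side of 0 from most of this group, with 1246 in irradiated and 320.5 in mock seedlings (1.96 ± 0.21). In plants this cyclin is known to be switched on by DNA breaks, and it was listed with the damage response. Scaled to the E1A spots, the median of the mitotic list was -0.18 with 20 of 30 members below 0, and that of the replication list 0.68, beside the median of 0.26 over all loci.

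**Figure D3:**
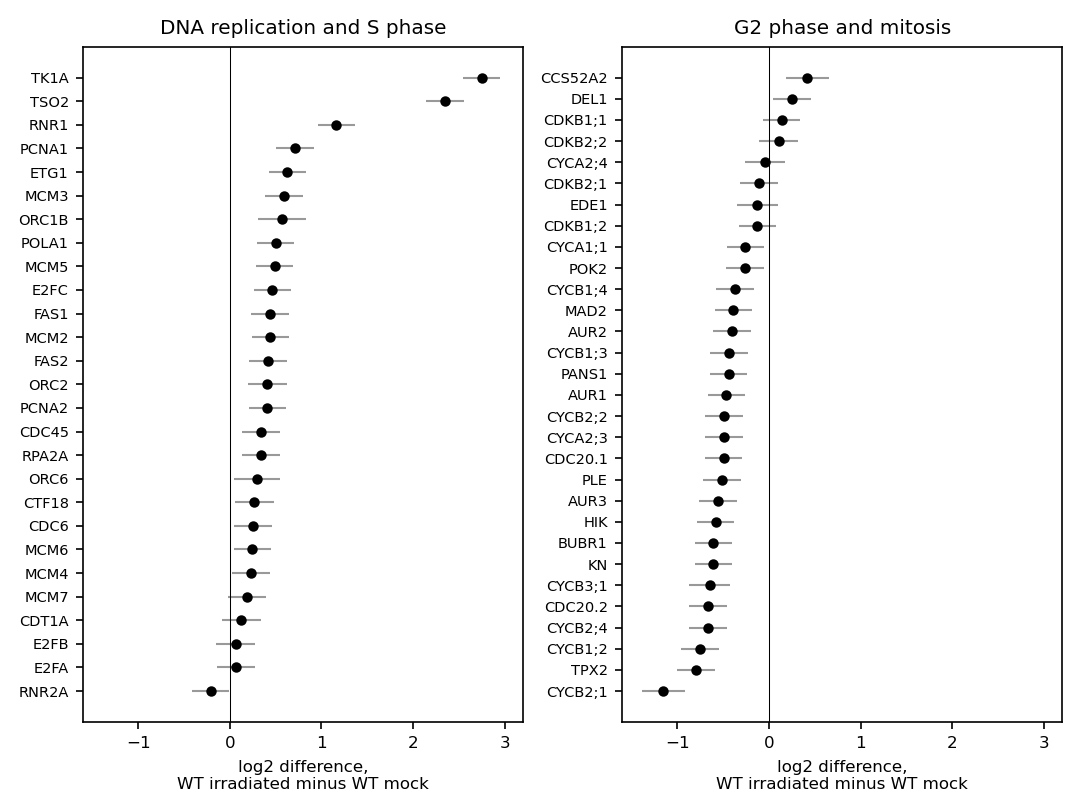
Log2 difference (irradiated minus mock) of 27 replication and S phase genes (left) and 30 of G2 phase and mitosis (right), with bars for the scanner error of the difference. Points on the left are above 0 for 26 genes, points on the right below 0 for 26 genes.

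The highest loci that are not on the damage response list had fewer known roles. AT5G07610 had the largest difference of all loci well above background on both arrays, with 3584 in irradiated and 63.3 in mock seedlings, 56.9-fold higher (5.83 ± 0.28). AT5G60250 had 3008 in irradiated and 321 in mock seedlings (3.23), AT3G48770 had 462 in irradiated and 51.4 in mock seedlings (3.17), AT1G21528 had 322 in irradiated and 38.5 in mock seedlings (3.07), and AT4G25330 had 476 in irradiated and 70.8 in mock seedlings (2.76). No role is assigned to these loci here. The chromatin remodelling gene chr31 (AT1G05490) had 470.1 in irradiated and 84.8 in mock seedlings (2.48, and 2.50 on its other probe). TRFL10 (AT5G03780) and TRFL3 (AT1G17460), whose proteins resemble telomere repeat binding factors, had 2589 and 1419 in irradiated and 581 and 654 in mock seedlings (2.16 and 1.12).

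Among the 90 higher loci that had only a bound, AT4G22960 had 953 in irradiated seedlings and was at least 32.1-fold higher. AT1G30660, AT3G02810 and AT4G25580 followed GEX1 with at least 6.45-fold, 6.29-fold and 5.03-fold. DRM1 (AT5G15380), an enzyme of de novo DNA methylation, was at least 3.59-fold higher with 107 in irradiated seedlings. Among 14 genes of DNA methylation it alone was past 2-fold, where 1.27% of all loci were higher. Its relative DRM2, the main enzyme of this kind in leaves, differed by -0.06, and the maintenance enzyme MET1 by 0.41.

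PEL3 (AT5G23940), an acyltransferase of cutin synthesis, had the third largest difference among loci bright on both arrays and the highest signal of any locus at least 4-fold higher. It had 200390 in irradiated and 9836 in mock WT seedlings, 20.5-fold higher (4.35 ± 0.20). In ago2a it had 5831 in irradiated and 9858 in mock seedlings, and in ago2c 5223 in irradiated and 5331 in mock seedlings. The irradiated WT array thus stood alone among the 6 arrays, and PEL3 had 1 probe.

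Beside the damage response, and leaving out the mitochondrial list that was chosen after the values were seen, the phosphate starvation and replication lists had the highest medians, and the heat shock and mitosis lists the lowest. The other lists were chosen with earlier results of these data known, so this ranking is a description only.

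**Figure D4:**
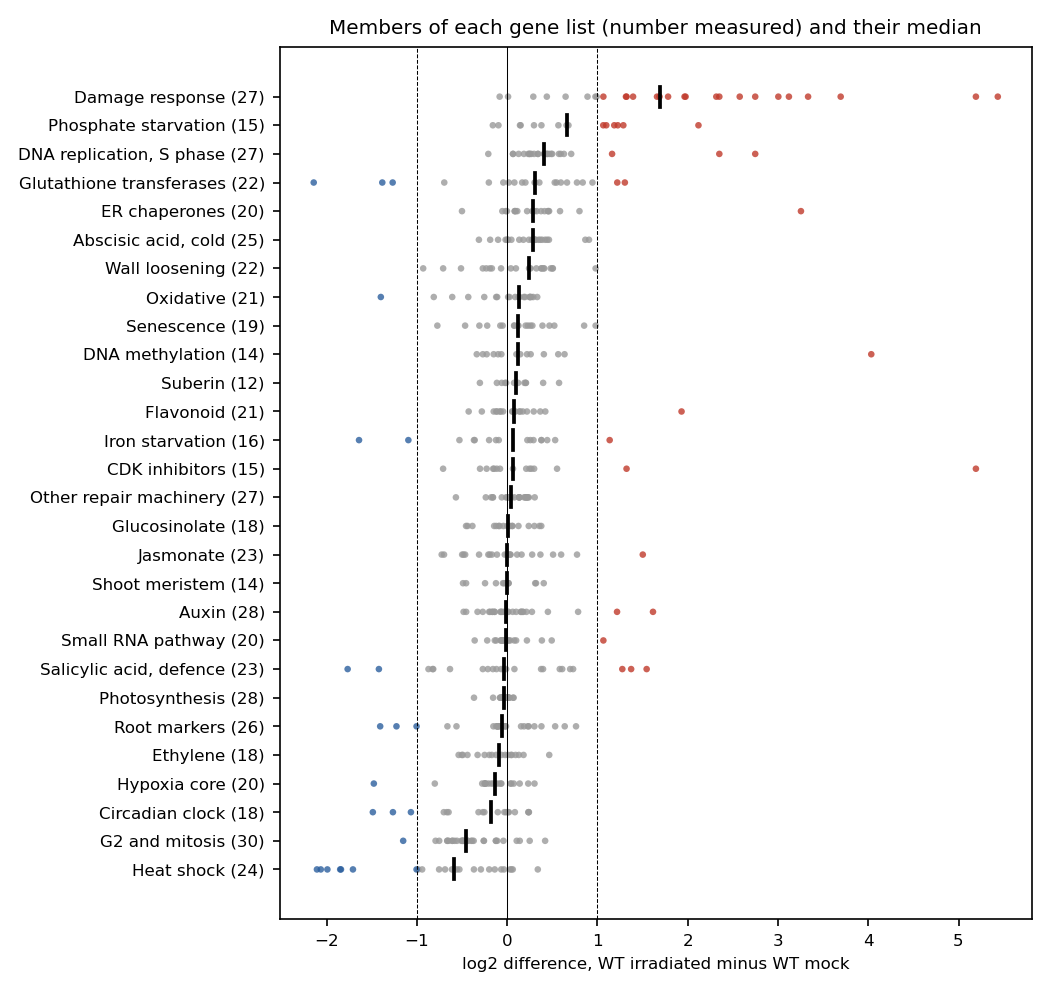
Log2 difference (irradiated minus mock) of each measured member of 28 gene lists, with the number measured in brackets and a black bar at the list's median. Red and blue points are at least 2-fold higher or lower, and dashed lines mark 2-fold.

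Heat shock genes were lower in irradiated seedlings. Of 24 measured, 7 were at least 2-fold lower and 0 higher, where 1.57% of all loci were lower, and the median was -0.59 (log2), or -0.31 scaled to the E1A spots. HSFA2 (AT2G26150), a heat shock factor made under stress, had 216 in irradiated and 934 in mock seedlings (-2.11 ± 0.21). The small heat shock protein genes held most of the others. HSP17.6A had 60.1 in irradiated and 252 in mock seedlings (-2.07), HSP23.6 had 139 in irradiated and 553 in mock seedlings (-1.99), and HSP17.4 had 90.22 in irradiated and 327 in mock seedlings (-1.85). HSP17.8 (-1.84) and HSP17.6II (-1.71) were lower as well, and HSP101, a chaperone that dissolves aggregates, had 546 in irradiated and 1101 in mock seedlings (-1.0). The constitutive chaperone genes HSC70-1, with 52554 in irradiated and 60586 in mock seedlings (-0.20), and HSP90.2 (-0.14) were level within the scanner error. HSFA6A (AT5G43840) was 2-fold higher, with 78.6 in irradiated and 36.4 in mock seedlings (1.11, and 0.42 with normexp correction).

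Chaperone genes of the endoplasmic reticulum did not share this. Of 20 measured, 16 were above 0, with a median of 0.29 (log2), and BIP3 (AT1G09080), the inducible member of the BIP family, was at least 2.34-fold higher with 69.5 in irradiated seedlings and a mock signal not well above background. BIP1 had 13617 in irradiated and 9113 in mock seedlings (0.58). BZIP60, which switches on these genes once its RNA is spliced, had 11125 in irradiated and 15807 in mock seedlings (-0.50).

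Genes of the mitochondrial stress response were lower too. This list of 19 was chosen after the values were seen, because NDB4 headed the lowest loci, so its count is a description only. Of the 19, 8 were at least 2-fold lower and 0 higher, where 1.57% of all loci were lower, with a median of -0.93 (log2). NDB4 (AT2G20800), an external NADH dehydrogenase of the mitochondrion, had 32.7 in irradiated and 428 in mock seedlings, 13.0-fold lower (-3.70 ± 0.35). Its relative NDB3 (AT4G21490) had 210.2 in mock seedlings and was not well above background in irradiated ones, at least 7.98-fold lower. The sulfotransferase gene SOT12 had 6201 in irradiated and 23472 in mock seedlings (-1.91), and UGT74E2, a glucosyltransferase that acts on an auxin, had 8201 in irradiated and 36381 in mock seedlings (-2.14). These 2 were among the brightest loci past 2-fold. The alternative oxidase genes AOX1D, with 1009 in irradiated and 2674 in mock seedlings (-1.40), and AOX1A, with 17821 in irradiated and 31446 in mock seedlings (-0.81), lay on the same side. NAC013, a regulator of this response, differed by -0.93, and its relative NAC017, which is held at a membrane until it is cleaved, by 0.26.

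Other loci at the low end were mostly unnamed. ARI12 (AT1G05880), a ubiquitin ligase, had 57.6 in irradiated and 598 in mock seedlings (-3.37 ± 0.26). AT5G55150 had 651 in irradiated and 5563 in mock seedlings (-3.09), and BPS3 (AT4G01360), a gene of the BYPASS family, had 850.4 in irradiated and 5773 in mock seedlings (-2.76). These were the brightest of the 15 lowest together with AT5G13210, which had 1078 in irradiated and 5652 in mock seedlings (-2.38, and -2.13 on its other probe). The receptor-like protein gene RLP24 (AT2G33020) had 87.1 in irradiated and 654 in mock seedlings (-2.90), and FPF1 (AT5G24860), which promotes flowering, had 28.5 in irradiated and 161 in mock seedlings (-2.49). The remaining ones, AT5G64790, AT2G38823, AT5G24040, AT1G65481, AT3G21080, AT4G28460, AT1G31310 and AT1G06135, lay between -3.20 and -2.37. Of 96 lower loci with only a bound, those with the largest after NDB3 were AT2G38830 at 6.90-fold, AT4G16050 at 6.45-fold, AT2G03230 at 5.84-fold and AT3G54530 at 5.54-fold.

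Phosphate starvation genes were higher in irradiated seedlings. Of 15 measured, 6 were at least 2-fold higher and 0 lower, where 1.27% of all loci were higher, with a median of 0.66 (log2) and 13 above 0. RNS1 (AT2G02990), a ribonuclease made when phosphate is short, had 4118 in irradiated and 952 in mock seedlings (2.1 ± 0.20). SPX3, a phosphate sensor protein gene, had 4209 in irradiated and 1732 in mock seedlings (1.29), and IPS1, a noncoding RNA that sequesters a microRNA, had 1415 in irradiated and 608 in mock seedlings (1.22). The galactolipid synthase gene MGD3 had 4236 in irradiated and 1869 in mock seedlings (1.19), the phosphatase gene PS2 had 33298 in irradiated and 15623 in mock seedlings (1.1), and the phosphate transporter gene PHT1;4 had 3176 in irradiated and 1525 in mock seedlings (1.06). PHR1, the main transcription factor of this response (-0.10), and PHO2, which sends phosphate transporters to degradation (-0.16), were level within the scanner error.

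A view over 206 gene families, defined by the letters of the gene symbol and not by these lists, gave the PHT family the largest share past 2-fold. Of its 16 measured phosphate transporter genes 5 were at least 2-fold higher and 0 lower, where 1.27% of all loci were higher and 1.57% lower. Besides PHT1;4 these were PHT1;7, with 249 in irradiated and 73.1 in mock seedlings (1.78), PHT1;8, with 118 in irradiated and 38.7 in mock seedlings (1.61), PHT1;5, with 1313 in irradiated and 657 in mock seedlings (1.00), and PHT1;9, whose mock signal was not well above background. With normexp correction PHT1;5, PHT1;8 and PHT1;9 lay inside 2-fold, at 0.94, 0.90 and 0.81. PHT1;8 was also inside it, at 0.86, when filter and brightest probe came from the WT arrays alone. The next families were the Pumilio RNA binding proteins PUM with 1 of 13 higher and 3 lower, HSFA with 1 of 8 higher and 1 lower, TRFL with 2 of 8 higher, HSP with 5 of 22 lower and CYCB with 1 of 9 higher and 1 lower. Of the 13 PUM genes, PUM8 alone was past 2-fold with both arrays well above background, at 51.8 in irradiated and 159 in mock seedlings (-1.61, and -0.90 with normexp correction). Of 27 loci whose symbol begins with PAP, which hold purple acid phosphatases that release phosphate and a few unrelated genes, 4 were higher. All of these encode purple acid phosphatases, of which PAP14 had 4938 in irradiated and 1918 in mock seedlings (1.37) and the mock signals of PAP19, PAP23 and PAP25 were not well above background. PAP19, PAP23 and PAP25 were bounded only as at least 1.03-fold, 2.74-fold and 2.30-fold higher. With normexp correction they lay inside 2-fold, at 0.48, 0.76 and 0.55.

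Of 18 measured circadian clock genes, 3 were at least 2-fold lower and 0 higher, where 1.57% of all loci were lower. These 3 are known to peak in the morning. PRR9 (AT2G46790) had 66.4 in irradiated and 187 in mock seedlings (-1.49, and -0.92 with normexp correction), LHY (AT1G01060) had 150.3 in irradiated and 363 in mock seedlings (-1.27, and -0.96 with normexp correction), and CCA1 (AT2G46830) had 761 in irradiated and 1600 in mock seedlings (-1.07, and -0.86 as a mean of its probes). The evening genes TOC1 (0.24), ELF4 (0.23), LUX (0.08), GI (0.02), ELF3 (-0.01) and PRR5 (-0.10) were all inside 2-fold. The list's median was -0.18 (log2) and changed its sign to 0.096 when scaled to the E1A spots. The sources used here do not give the hour at which each pool was harvested, so treatment and time of day cannot be told apart.

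**Figure D5:**
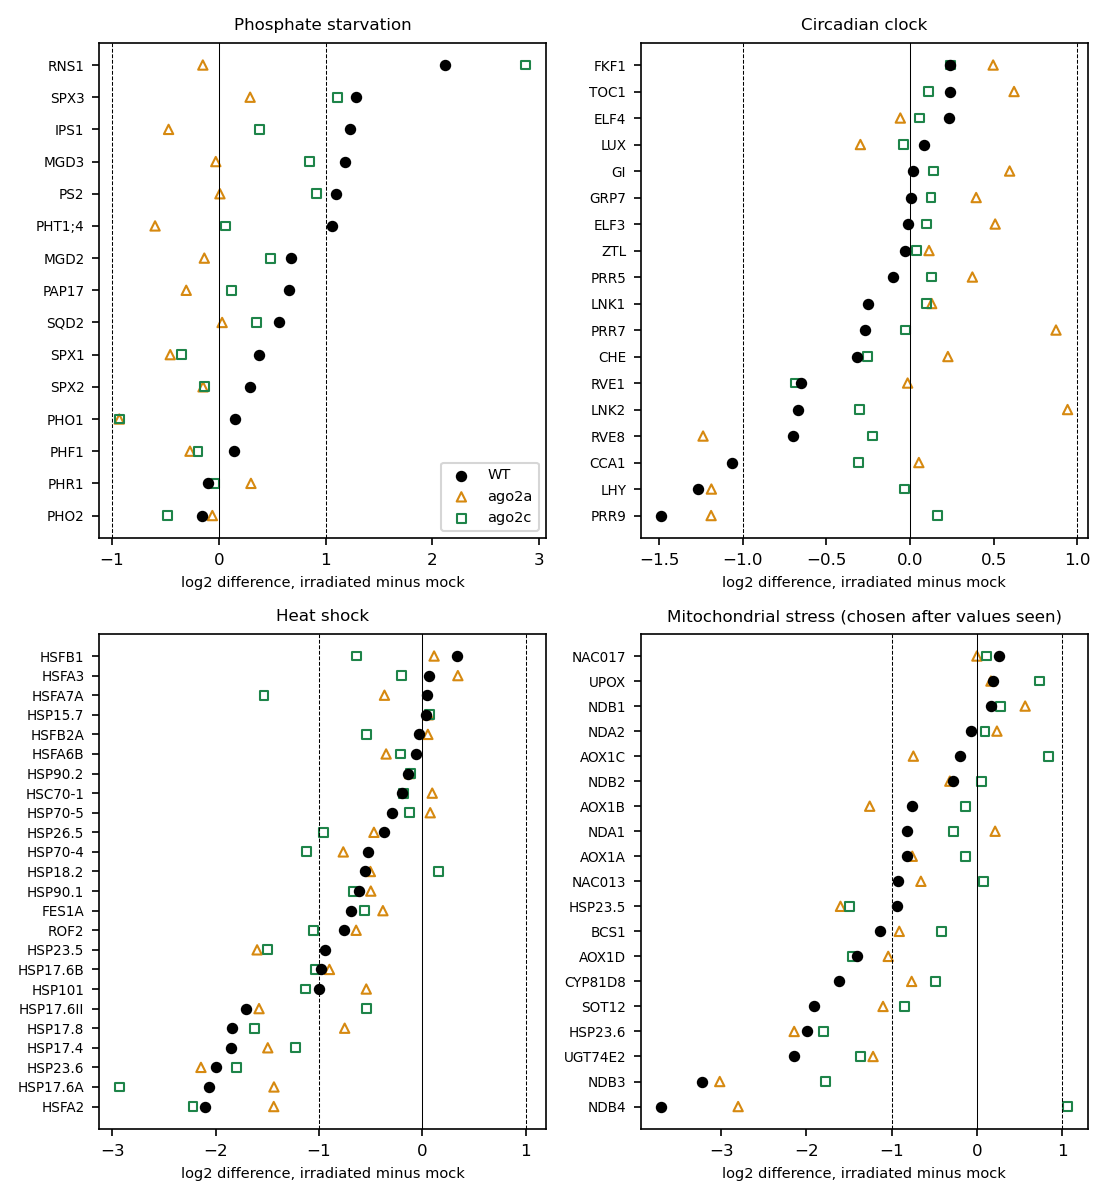
Log2 difference (irradiated minus mock, horizontal axis) of each measured member of 4 gene lists in WT (black circles), ago2a (orange triangles) and ago2c (green squares), with dashed lines at 2-fold. The phosphate starvation genes RNS1 and SPX3 lie past 2-fold in WT and ago2c, and heat shock genes lie left of 0 in all 3 lines for most members.

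Defence and hormone genes gave mixed results. Of 23 measured genes of salicylic acid and defence, 3 were at least 2-fold higher and 2 lower, where 1.27% of all loci were higher and 1.57% lower. PAD3, which makes the phytoalexin camalexin, had 1834 in irradiated and 631 in mock seedlings (1.54), WRKY38 had 547 in irradiated and 212 in mock seedlings (1.37), and the glucanase gene PR2 had 730.5 in irradiated and 303 in mock seedlings (1.28). On the other side ALD1, which makes pipecolic acid, had 134 in irradiated and 459.8 in mock seedlings (-1.77), and PBS3, an enzyme of salicylic acid synthesis, had 1053 in irradiated and 2832 in mock seedlings (-1.42). Other genes of salicylic acid synthesis were below 0, among them ICS1 (-0.83) and its activators CBP60G (-0.87) and SARD1 (-0.82), while the receptor gene NPR1 (-0.16) was level within the scanner error. Of 30 loci whose symbol begins with CRK, cysteine-rich receptor kinases and a few CDPK-related kinases, 1 was higher and 5 lower, with the receptor kinase gene CRK36 at 561 in irradiated and 2855 in mock seedlings (-2.34). Of the lower ones, CRK31 and CRK38 were not well above background in irradiated seedlings and lay inside 2-fold with normexp correction, at -0.91 and -0.63.

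The other hormone lists and those of iron starvation and flavonoids had few or no members past 2-fold. Over all loci 1.27% were higher and 1.57% lower. The jasmonate list had 1 of 23 higher, TAT3, a tyrosine aminotransferase, with 1454 in irradiated and 515 in mock seedlings (1.5). The auxin list had 2 of 28 higher, the repressor gene IAA5, with 913 in irradiated and 299 in mock seedlings (1.61), and LBD16, a regulator of lateral root formation, with 275 in irradiated and 119 in mock seedlings (1.22). The abscisic acid list had 0 of 25 past 2-fold, but 20 were above 0, with a median of 0.28 (log2). The ethylene list had 0 of 18 past 2-fold, with 7 above 0 and a median of -0.09. The iron starvation list had 1 of 16 higher, the nicotianamine synthase gene NAS2 (1.14), and 2 lower, BHLH100 (-1.64) and BHLH101 (-1.10), which encode regulators of iron uptake. The flavonoid list had 1 of 21 higher, PAP2 (AT1G66390), a MYB activator of anthocyanin genes, with 259 in irradiated and 68.2 in mock seedlings (1.93), whereas the enzyme gene CHS differed by 0.42 and DFR by 0.13.

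Genes of detoxification and oxidative stress were split in the same way. Over all loci 1.27% were higher and 1.57% lower. Of 22 measured genes of glutathione transferases and related enzymes, 2 were at least 2-fold higher, GSTU11 with 696 in irradiated and 283 in mock seedlings (1.30) and GSTF7 with 792 in irradiated and 341 in mock seedlings (1.22). Besides UGT74E2, the 2 lower were GSTU9 with 2082 in irradiated and 5456 in mock seedlings (-1.38) and the transporter gene DTX1 with 103 in irradiated and 249 in mock seedlings (-1.27). Of 21 oxidative stress genes, AOX1D alone was past 2-fold. The catalase genes CAT1 (0.25), CAT2 (-0.25) and CAT3 (0.33) and the ascorbate peroxidase gene APX1 (0.29) lay within 0.5 of 0.

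Photosynthesis genes were level. All 28 photosynthesis genes lay between -0.37 (LHCB2.1) and 0.07 (PRK), and 26 were within 0.1 of 0. Of 26 root markers 0 were counted higher and 3 lower, where 1.57% of all loci were lower, and of these CASP5 was well above background on both arrays, with 31.1 in irradiated and 62.7 in mock seedlings (-1.0). The root list's median was -0.06 (log2), and that of the suberin list, with 0 of 12 past 2-fold, 0.10. Markers of guard cells (6 measured, median -0.04), phloem (6, median -0.07), developing xylem (8, median 0.00) and trichomes (4, median -0.24) had 0 members past 2-fold. The trichome median was 0.033 when scaled to the E1A spots. Of 20 core hypoxia genes ERF71 was lower, with 110 in irradiated and 307 in mock seedlings (-1.48), and the list's median was -0.14, or 0.14 scaled to the E1A spots. The lists of senescence (19 genes), wall loosening (22), glucosinolates (18) and shoot meristem (14) had 0 members past 2-fold, and the small RNA list (20) had AGO2 alone. Among 120 listed or named loci past 2-fold, 30 lay inside it with normexp correction. Besides those given above they include BIP3 (0.84), LBD16 (0.89), NAS2 (0.98), HSP101 (-0.95), BHLH100 (-0.80), BHLH101 (-0.96), DTX1 (-0.86) and CASP5 (-0.45).

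The ago2 lines were irradiated and mock-treated in the same way on arrays that are not shared with WT, and their values stand here beside those of WT without a test. At least 2-fold lower were 317 loci (1.57%) in WT, beside 1491 (7.39%) in ago2a and 1110 (5.5%) in ago2c. At least 2-fold higher were 257 (1.27%) in WT, beside 280 (1.39%) in ago2a and 256 (1.27%) in ago2c. At 5615 loci that had a second bright probe on every array, the median difference of the other probes lay over 2-fold from that of the brightest in 0.178% of cases in WT, 14.1% in ago2a and 0.445% in ago2c, so that the pair of ago2a arrays stood apart.

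The damage response list stood at 1.69 (log2 median) in WT, against 1.94 in ago2a and 1.57 in ago2c. SMR7 stood at 5.19 in WT, against 5.63 in ago2a and 4.99 in ago2c. The heat shock median was -0.59 in WT, against -0.50 in ago2a and -0.81 in ago2c. For phosphate starvation it was 0.66 in WT, against -0.15 in ago2a and 0.12 in ago2c, and for root markers -0.06 in WT, against -1.54 in ago2a and -1.6 in ago2c. The hypoxia list stood at -0.14 in WT, against -1.16 in ago2a and -0.97 in ago2c. Of the 257 loci higher in WT, 162 were above 0 in ago2a and 188 in ago2c, where 56.3% and 51.4% of all loci were above 0. Of the 317 loci lower in WT, 276 were below 0 in ago2a and 244 in ago2c, where 43.7% and 48.6% of all loci were below 0. These counts of signs did not require a bright signal on the ago2 arrays, and several of the lowest WT loci were very dim in ago2c. There ARI12 had 4.72 in irradiated and 5.92 in mock seedlings, and AT1G65481 had 5.95 in irradiated and 6.33 in mock seedlings. The sign of such a difference carries little information. NDB4, the lowest locus of WT among those well above background on both arrays, stood at -3.70 in WT, against -2.80 in ago2a and 1.06 in ago2c, where its signals were 29.8 in irradiated and 14.7 in mock seedlings.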

How the data were processed

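Cy3-labelled RNA was hybridised to Agilent arrays, per the labels' protocols. Per the file headers, Feature Extraction 11.0.1.1 gave the deposited intensity of each spot, corrected for background, with its error and with flags (other values) for outlier spots and spots well above background. The series matrix, deposited by the authors as a linear ratio of unstated scale, served as an alternative. Both WT arrays lay on 1 slide. The number of arrays limits the precision.

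Control spots and flagged spots were left out, which removed 53 of 43603 probes, and RefSeq accessions in the TAIR10.1 gene table placed 34348 probes at a locus (9255 were not placed). Values were log2 of the processed signal minus each array's 75th percentile. A probe entered when well above background on at least 2 of 6 arrays, and the brightest stood for each of 20171 loci (25388 had a probe). A locus counted as higher or lower at 2-fold when the brighter WT array was well above background. No test was possible with 1 array per condition. The named genes were the 15 highest and 15 lowest loci bright on both arrays, the 5 largest bounds each way, up to 6 members past 2-fold per list with members near 0 as examples, and up to 4 per family for the 6 families with the largest share past 2-fold among those of at least 8 loci. Genes of the CRK, PAP and WRKY families and runs of neighbouring loci were chosen after their values were seen. The lists (34, and 1 added) were chosen with earlier results of these data known. 1 gene that the rule names is not reported here. Promoter motifs were not analysed here.

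The alternatives were normexp background correction (limma 3.58.1, R 4.3.3, offset 50), quantile and median scaling, a percentile over bright probes, the authors' values, other filters, probe summaries and fold thresholds, and, chosen after seeing the data, filter and probe from the WT arrays alone and scaling to the E1A spots. The counting was tested on simulated data. Calculations used Python 3.11.15, numpy 2.4.6 and pandas 2.3.3.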

Additional observations from a re-analysis of the deposited data

Results flagged for a closer look

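Of the loci named here, 3 were counted past 2-fold in WT and stood on the opposite side of 0 in both ago2 lines, which is what singled them out, and the difference between the lines was not tested. The nitrate transporter gene NRT2.1 had a log2 difference of -1.41 in WT, where its irradiated signal of 19.2 was not well above background, so that the difference is bounded only as at least 1.95-fold lower, beside 0.96 in ago2a and 1.65 in ago2c. The jasmonate-responsive TAT3 stood at 1.5 in WT against -0.23 in ago2a and -0.59 in ago2c. The lateral root regulator LBD16 stood at 1.22 in WT against -1.01 in ago2a and -1.28 in ago2c. The root marker list as a whole had a median of -0.06 in WT against -1.54 in ago2a and -1.6 in ago2c. Its part in the values of LBD16 and NRT2.1 was not tested.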

How the results depend on the processing

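The counts of 257 higher and 317 lower loci stayed within 1.5 times of themselves, at 254 to 373 higher and 311 to 416 lower, under quantile and median scaling, a percentile over bright probes, the authors' values, the mean of probes, every probe past the fold, and filter and probe from the WT arrays alone. They came to 122 and 143 with normexp correction, 491 and 734 without a filter on dim probes, 737 and 799 at 1.5-fold, 106 and 138 at 3-fold, and 492 and 201 scaled to the E1A spots. With both arrays well above background they were 165 and 221. Fewer or more loci pass a stricter or looser threshold or filter by construction. Scaling to the E1A spots moves every difference by the same amount, and whether the E1A amounts were equal was not tested. The cause of the normexp values was not tested either. Of 34 list medians, 3 changed their sign, all scaled to the E1A spots, namely core hypoxia (0.14), the clock (0.096) and trichomes (0.033). None of the 650 listed or named genes changed the sign of a difference past 2-fold under the 10 settings that give a value per gene. In 691 of their values, 610 of them with E1A scaling, the difference moved by more than the scanner error, and in 5789 it did not. Of 120 listed or named loci past 2-fold, 30 lay inside it with normexp correction, 10 with E1A scaling, and 1 or 2 with quantile or median scaling, the mean of probes, or probes from the WT arrays alone. No paired analysis was possible because each condition had 1 array and its replicate number came from accession order. The scanner error and repeated spots do not cover seedling batches, dose or harvest time, and dim loci, which hold most of those past 2-fold, have the largest errors.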

Other observations

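Loci past 2-fold also lay side by side on the chromosomes. In 5 places at least 3 neighbouring measured loci were past 2-fold in the same direction, and all of them were lower in irradiated WT seedlings. The longest run held 4 loci from the transporter gene DTX1 (-1.27) to AT2G04070 (-2.12). CRK36, CRK37 and CRK38, receptor kinase genes in tandem, formed another run, with CRK36 at -2.34, CRK37 at -2.06 and the irradiated signal of CRK38 not well above background. In a further run ZAT7, a zinc finger gene, had -1.09 beside AT3G46080 at -1.19 and AT3G46070 at -1.58. The other runs were AT5G22520 to AT5G22540, with -1.31 to -1.64, and AT3G28560 to AT3G28580. In that last run AT3G28560 and AT3G28570 were not well above background in irradiated seedlings, so it rests on dim signals, and AT3G28580 had -1.38. Neighbours in a tandem family can share probe sequence, and whether these probes do was not analysed here.

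The WRKY family of transcription factors had members on both sides. Of 57 measured, 3 were at least 2-fold higher and 2 lower, where 1.27% of all loci were higher and 1.57% lower. WRKY50 had 1255 in irradiated and 525 in mock seedlings (log2 1.26) and WRKY60 had 2943 in irradiated and 1415 in mock seedlings (1.06). On the lower side WRKY51 had 376 in irradiated and 1219 in mock seedlings (-1.69) and WRKY59 had 329 in irradiated and 694 in mock seedlings (-1.07). With normexp correction WRKY60 and WRKY59 lay just inside 2-fold, at 0.99 and -0.98.

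Of 4255 probes that matched no locus and were well above background on either WT array, 160 were at least 2-fold higher and 231 lower in irradiated seedlings. Among the measured loci, which passed another filter and stand for 1 probe each, 1.27% were higher and 1.57% lower.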
